A study of Homo sapiens with 6 samples.

Results

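The unfolded protein response and ER folding genes were examined in MDA-MB-231 cells, an established triple-negative human breast cancer line with mesenchymal features. They are 38 genes named by symbol, the chaperones, oxidases, stress sensors, degradation factors and translocon subunits of the endoplasmic reticulum (ER), and their probes were taken from the chip's probe table by that symbol. Of the 38, 36 had a probe under their symbol, among the 31424 symbols on the Illumina HumanHT-12 v4 chip, with 54 probes in all. Transcript levels of 31 could be measured, with a probe detected (detection p under 0.01) on 3 or more of the 6 arrays. Of the other 7, PDIA3, ERO1LB, PPIB, SEL1L and DERL3 had probes but none detected on that many arrays, and MANF and VIMP had no probe under those symbols.

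The cells were transduced with a short hairpin RNA (shRNA) targeting SOX4, which encodes a SOX-family transcription factor, in 3 samples, or with a scrambled shRNA in 3 samples, and each sample was hybridised to 1 array. The columns of 2 scrambled arrays share 1 heading, so those arrays are called 2a and 2b, and scrambled values are given in the order 1, 2a and 2b. All 6 samples were the same cell line in the same serum-containing medium, with no ER stress agent named in the labels. The SOX4 group rests on 1 hairpin, so that loss of SOX4 and any other effect of that hairpin cannot be told apart. Whether the samples of a group were separate cultures is not given in the sources used here, and p-values cover just the spread among these samples, possibly technical. In total RNA of whole cultures, fewer cells that express a gene and less RNA per cell cannot be told apart.

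Each array detected between 15197 and 16187 of 47322 probes. With 3 arrays a group, their number limits the precision. SOX4 itself was lower in SOX4 shRNA cells by a log2 difference of -2.43 ± 0.14 (SE; adjusted p = 4.1e-13, limma), with 5.46 ± 0.27 in SOX4 shRNA cells and 7.89 ± 0.16 in scrambled cells (log2 signal, SD, n = 3 each). SOX4 was detected on 2 of the 3 SOX4 shRNA arrays, so the size of its fall depends on how background is treated. The difference was -1.15 without background correction and -3.22 in the authors' log2 values. The line's markers VIM, CD44, CAV1, KRT18 and KRT8 were detected on every array, and of 4 genes known to be low or absent in it CDH1, ESR1 and PGR were detected on none and ERBB3 on 3 SOX4 shRNA and 2 scrambled arrays. Of 13 leucocyte, endothelial and fibroblast markers, 9 were detected on no array: PTPRC, CD3D, CD79A, CDH5, VWF, KDR, PDGFRA, DCN and POSTN. LYZ was detected on 2 SOX4 shRNA and 3 scrambled arrays, PECAM1 on 2 and 1, LUM on 3 and 0 (adjusted p = 0.069) and COL1A1 on 0 and 1, and their part in the results was not tested. Differences are SOX4 shRNA minus scrambled on normalized log2 signal, tested in limma with Benjamini-Hochberg adjustment over all rows. The adjusted p was under 0.05, here called passing, for 3807 of 12451 genes and unnamed probes tested, and this share of 30.6% is the background for the counts of members.

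Proteins that enter the secretory pathway are threaded through the SEC61 channel and fold in the ER with the help of chaperones such as BiP, the product of HSPA5, and of oxidases that form disulfide bonds. When unfolded proteins accumulate, BiP is drawn from the sensors IRE1 (encoded by ERN1), PERK (EIF2AK3) and ATF6. IRE1 splices the XBP1 messenger RNA, PERK phosphorylates the initiation factor eIF2 alpha and favours translation of ATF4, and ATF6 is cleaved to a transcription factor. Spliced XBP1 and cleaved ATF6 then raise chaperones, oxidases and the machinery of ER-associated degradation, through ER stress elements in the promoters of their targets. A BeadChip measures transcript level, not XBP1 splicing, phosphorylation or cleavage.

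The promoters show which members carry these elements, so those sequences are given first. The windows are the RefSeq promoters of GRCh38.p14, 300 bases long, from 250 bases before to 50 after the annotated start of a gene, read 5′ to 3′ on the gene's strand. They were searched on both strands for 3 motifs: the ER stress element ERSE (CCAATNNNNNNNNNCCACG), ERSE-II (ATTGGNCCACG) and the unfolded protein response element UPRE (TGACGTGG). Of the 36 members with a probe under their symbol, 32 had a window, and 12 of these (37.5%) held at least 1 of the motifs, against 1.08% of the 27305 genes with a window. HSPA5, which fell, held an ERSE, and its whole window is shown with the match in capitals, 66 to 48 bases before the start.
HSPA5 (chr9:125241294-125241593, - strand): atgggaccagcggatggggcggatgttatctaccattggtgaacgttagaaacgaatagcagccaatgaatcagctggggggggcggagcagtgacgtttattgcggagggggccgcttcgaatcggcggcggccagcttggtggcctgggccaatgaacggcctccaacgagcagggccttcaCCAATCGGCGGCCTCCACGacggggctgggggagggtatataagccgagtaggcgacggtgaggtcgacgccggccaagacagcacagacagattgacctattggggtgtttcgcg

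An ERSE was found in 7 members and in 27 of all 35116 windows (0.0769%). The other 6 members are shown with up to 20 bases on each side of the match, as the set that shares the HSPA5 motif. Capitals mark the match, which reads as its reverse complement where it lies on the opposite strand, as in CRELD2, ERO1LB and the second match of HSP90B1.
HSP90B1 match 1 (chr12:103930196-103930254, + strand, match 194 to 176 bases before the start): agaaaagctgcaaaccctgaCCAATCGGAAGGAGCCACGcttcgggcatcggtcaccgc
HSP90B1 match 2 (chr12:103930301-103930359, + strand, match 89 to 71 bases before the start): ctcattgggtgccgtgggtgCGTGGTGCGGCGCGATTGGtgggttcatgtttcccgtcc
CANX (chr5:179698758-179698816, + strand, match 151 to 133 bases before the start): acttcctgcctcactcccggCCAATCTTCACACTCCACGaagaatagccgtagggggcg
PDIA6 (chr2:10812833-10812891, - strand, match 86 to 68 bases before the start): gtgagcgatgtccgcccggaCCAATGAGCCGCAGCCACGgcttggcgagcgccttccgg
CRELD2 (chr22:49918534-49918592, + strand, match 80 to 62 bases before the start): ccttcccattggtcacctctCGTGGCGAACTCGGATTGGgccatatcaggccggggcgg
XBP1 (chr22:28800583-28800641, - strand, match 52 to 34 bases before the start): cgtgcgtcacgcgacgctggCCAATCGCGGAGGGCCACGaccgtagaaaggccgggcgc
ERO1LB (chr1:236282163-236282208, - strand, match 243 to 225 bases before the start): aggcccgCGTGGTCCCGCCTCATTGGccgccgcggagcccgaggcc

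ERSE-II was found in 3 members, HYOU1, SDF2L1 and HERPUD1, and in 19 of all windows (0.0541%). UPRE was found in 3 members, HYOU1, DNAJC10 and TXNDC5, and in 256 of all windows (0.729%). Both sets are shown because DNAJC10 rose and TXNDC5 fell while sharing the UPRE letters, and because none of the ERSE-II members passed. Capitals again mark the match. The matches of DNAJC10 and SDF2L1 and both ERSE-II matches of HYOU1 lie on the opposite strand, and in HYOU1 the UPRE match overlaps the first ERSE-II match.
DNAJC10 (chr2:182716112-182716159, + strand, match 125 to 118 bases before the start): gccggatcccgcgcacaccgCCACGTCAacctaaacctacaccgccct
TXNDC5 (chr6:7910142-7910189, - strand, match 92 to 85 bases before the start): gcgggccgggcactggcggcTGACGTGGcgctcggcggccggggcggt
HYOU1 (chr11:119057366-119057413, - strand, match 188 to 181 bases before the start): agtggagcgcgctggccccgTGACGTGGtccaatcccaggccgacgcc
HYOU1 ERSE-II match 1 (chr11:119057360-119057410, - strand, match 185 to 175 bases before the start): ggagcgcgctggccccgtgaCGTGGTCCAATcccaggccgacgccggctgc
HYOU1 ERSE-II match 2 (chr11:119057254-119057304, - strand, match 79 to 69 bases before the start): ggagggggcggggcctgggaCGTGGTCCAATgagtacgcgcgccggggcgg
SDF2L1 (chr22:21642094-21642144, + strand, match 188 to 178 bases before the start): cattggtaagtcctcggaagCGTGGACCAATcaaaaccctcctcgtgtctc
HERPUD1 (chr16:56932005-56932055, + strand, match 117 to 107 bases before the start): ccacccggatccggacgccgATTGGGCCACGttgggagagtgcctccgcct

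Among the 31 measured members, 4 rose and 4 fell with the SOX4 hairpin. The oxidase gene ERO1L and the chaperone gene HSPA5 fell, by log2 differences of -0.95 and -0.63, and the stress sensor gene ERN1 rose, by 0.57. The other 5 that passed moved by 0.29 or less: DNAJC10, SYVN1 and SEC61A1 rose, and WFS1 and TXNDC5 fell. The 8 are 25.8% of those measured, a share near the 30.6% over all rows, and the 15.2% of rows higher and 15.4% lower are the shares by direction. The count is therefore no result about the members as a set. The median difference of the 31 was 0.03 and that of all rows -0.01, and the median size of the difference was 0.10 for the members and 0.16 for all rows. Without scrambled array 2b 2 members rose and 2 fell, without SOX4 shRNA replicate 1 2 rose, and with no intensity trend in the fit 1 rose and 2 fell. In 12 members (38.7%), 6 higher and 6 lower, the 3 SOX4 shRNA values did not overlap the 3 scrambled values, against 42% of all rows (20.2% higher and 21.7% lower).

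**Figure D1:**
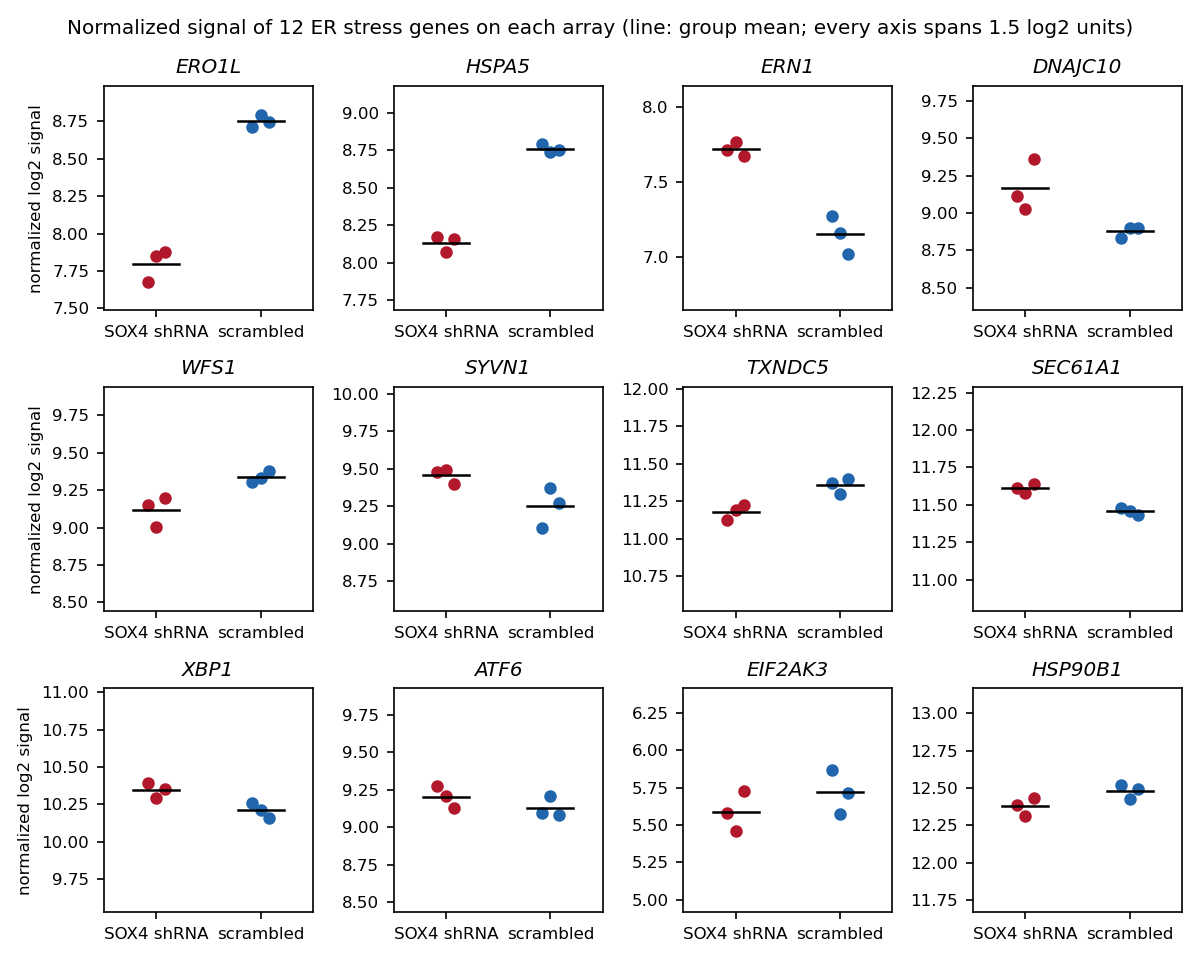
Normalized log2 signal of 12 members on each array, SOX4 shRNA (red, left) and scrambled (blue, right), with the group mean as a line. Every axis spans 1.5 log2 units, so distances can be compared between panels but levels cannot. ERO1L and HSPA5 lie lower and ERN1 higher on all 3 SOX4 shRNA arrays, by -0.95, -0.63 and 0.57 between the group means.

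Among the chaperones, HSPA5 encodes BiP, the HSP70 chaperone of the ER lumen that also holds the stress sensors inactive. Its log2 signal was 8.17, 8.07 and 8.16 on the SOX4 shRNA arrays and 8.79, 8.74 and 8.75 on the scrambled arrays. The groups were separated by a gap far wider than the spread within either. HSPA5 fell 1.54-fold, with a log2 difference of -0.63 ± 0.078 (SE; 95% interval -0.79 to -0.47; adjusted p = 6.6e-07, limma). In deposited intensity it had 391 ± 13.6 in SOX4 shRNA cells and 516 ± 15.98 in scrambled cells (SD, n = 3 each), and the authors' deposited table gives a fold of 0.64.

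The chaperone genes HSP90B1 and CANX, and HYOU1 and SIL1, did not follow HSPA5 past the threshold. HSP90B1, the HSP90 chaperone of the ER, differed by -0.10 (95% interval -0.21 to 0.00; adjusted p = 0.13), and CANX, the membrane lectin chaperone calnexin, by -0.09 (-0.26 to 0.07; adjusted p = 0.41). HYOU1, a large HSP70 relative that exchanges nucleotide on BiP, differed by -0.19 (-0.39 to 0.02; adjusted p = 0.17), and its 3 SOX4 shRNA values all lay under the scrambled ones. SIL1, another nucleotide exchange factor of BiP, lay the other way, at 0.16 with groups that did not overlap and an adjusted p of 0.0503, just outside the threshold.

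Of the J-domain co-chaperones, which direct BiP to its clients, DNAJC10 rose. It encodes ERdj5, a disulfide reductase that serves ER-associated degradation. Its log2 signal was 9.12, 9.03 and 9.36 on the SOX4 shRNA arrays and 8.84, 8.90 and 8.90 on the scrambled arrays. The highest SOX4 shRNA value, of replicate 3, stood apart from the other 2, and all 3 were above every scrambled value. The log2 difference was 0.29 ± 0.080 (SE; adjusted p = 0.007, limma), but the other kept DNAJC10 probe gave 0.03 (95% interval -0.28 to 0.35). Without SOX4 shRNA replicate 3 the difference was 0.19 and did not pass (adjusted p = 0.084). DNAJB9 (0.03), DNAJB11 (0.04) and DNAJC3 (0.14) had adjusted p of 0.85, 0.61 and 0.50.

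ERO1L (now ERO1A) had the largest difference of the 31 measured members. It encodes the oxidase that reoxidises protein disulfide isomerase and so drives disulfide bond formation. Its log2 signal was 7.68, 7.85 and 7.88 on the SOX4 shRNA arrays and 8.71, 8.80 and 8.74 on the scrambled arrays. The highest SOX4 shRNA array, at 7.88, lay well under the lowest scrambled array, at 8.71. ERO1L fell 1.93-fold, with a log2 difference of -0.95 ± 0.084 (SE; 95% interval -1.12 to -0.78; adjusted p = 1.7e-09, limma). With all rows tested ordered from the most negative difference, ERO1L ranked 138 and HSPA5 366. The intensity of ERO1L was 331 ± 22.5 in SOX4 shRNA cells and 513 ± 34.3 in scrambled cells (SD, n = 3 each), and the authors' deposited table gives a fold of 0.5. Its promoter window held none of the 3 motifs, which says only that those letters are not in that window.

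TXNDC5, a disulfide isomerase with thioredoxin domains, also fell, by less. Its log2 signal was 11.13, 11.19 and 11.22 on the SOX4 shRNA arrays and 11.37, 11.30 and 11.40 on the scrambled arrays. The groups lay close together but did not overlap, and the difference was -0.18 ± 0.055 (SE; adjusted p = 0.016, limma). TXNDC5 did not pass without SOX4 shRNA replicate 1 (-0.15) or scrambled array 2b (-0.16). Its 2 other kept probes gave nearly the same difference, -0.18 for both, without passing. The isomerases PDIA4 (-0.04) and PDIA6 (0.04) and the prolyl isomerase FKBP14 (-0.0013) had adjusted p of 0.87, 0.77 and 0.99. ERO1LB, the second ER oxidase gene, was not well above background on any array, so the fall of ERO1L has no measured counterpart there. PPIB, the ER cyclophilin, was detected on 2 SOX4 shRNA arrays and no scrambled array and was not tested, while the authors' deposited table gives it a fold of 1.79.

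The small luminal proteins SDF2L1 and CRELD2, both known as ER stress targets, differed by 0.08 and 0.03 (adjusted p = 0.39 and 0.80). The chip carries MANF under the older symbol ARMET and VIMP, a membrane protein of the degradation complex, under SELS. Neither counts among the 31. Their differences were -0.0020 (adjusted p = 0.98) and 0.04 (adjusted p = 0.66).

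Of the 3 stress sensors, ERN1 rose and the other two did not pass. The log2 signal of ERN1 was 7.72, 7.76 and 7.67 on the SOX4 shRNA arrays and 7.27, 7.16 and 7.02 on the scrambled arrays. All 3 SOX4 shRNA values lay above all scrambled values, and the scrambled arrays varied more. The log2 difference was 0.57 ± 0.10 (SE; 95% interval 0.36 to 0.78; adjusted p = 9e-05, limma), a rise of 1.48-fold. Its intensity was 318 ± 7.70 in SOX4 shRNA cells and 235 ± 11.8 in scrambled cells (SD, n = 3 each). A second ERN1 probe was not detected on any array, so the rise rests on 1 probe, and in the authors' log2 values the log2 difference of ERN1 was 0.54 with an adjusted p of 0.054. The authors' deposited table gives ERN1 a fold of 1.44.

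ATF6 had a log2 signal of 9.28, 9.21 and 9.13 on the SOX4 shRNA arrays and 9.09, 9.21 and 9.08 on the scrambled arrays. EIF2AK3 had 5.58, 5.46 and 5.73 on the SOX4 shRNA arrays and 5.87, 5.58 and 5.71 on the scrambled arrays. Both pairs of groups overlapped, with differences of 0.08 (95% interval -0.07 to 0.22) and -0.13 (95% interval -0.49 to 0.23). The EIF2AK3 signal was near background, with an intensity of 149 ± 6.93 in SOX4 shRNA cells and 149 ± 2.39 in scrambled cells (SD, n = 3 each), where the array medians ran from 119 to 124. Its interval reaches furthest below 0 among the members that did not pass.

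XBP1, the transcription factor spliced by IRE1, lay higher with the SOX4 hairpin on both of its probes, and only 1 of them passed. The brighter probe, which stands for the gene, had 10.40, 10.30 and 10.35 on the SOX4 shRNA arrays and 10.26, 10.22 and 10.16 on the scrambled arrays. The groups did not overlap, but the difference of 0.14 ± 0.060 (SE) had an adjusted p of 0.092 in limma. The other probe had 10.14, 10.36 and 10.29 on the SOX4 shRNA arrays and 9.93, 10.07 and 9.99 on the scrambled arrays, a difference of 0.27 ± 0.066 (SE; adjusted p = 0.0035 over all kept probes, limma), where 28.9% of 15717 kept probes passed. With the mean of both probes XBP1 differed by 0.20 (adjusted p = 0.009). Which form of the transcript each probe reads is not given in the sources used here.

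WFS1, an ER membrane glycoprotein of calcium handling that is also a target of the stress sensors, fell. Its log2 signal was 9.15, 9.003 and 9.19 on the SOX4 shRNA arrays and 9.30, 9.33 and 9.38 on the scrambled arrays. The groups did not overlap, and the difference was -0.22 ± 0.071 (SE; adjusted p = 0.02, limma). WFS1 did not pass without SOX4 shRNA replicate 2 (-0.17) or scrambled array 2b (-0.20), where the adjusted p was 0.13 and 0.064.

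ER-associated degradation returns misfolded proteins to the cytosol for the proteasome. SYVN1, its ubiquitin ligase HRD1, rose: the log2 signal was 9.48, 9.49 and 9.40 on the SOX4 shRNA arrays and 9.10, 9.37 and 9.27 on the scrambled arrays. The nearest arrays of the groups, at 9.40 and 9.37, differed by less than the range within either group, and the difference was 0.21 ± 0.074 (SE; adjusted p = 0.034, limma). SYVN1 did not pass without SOX4 shRNA replicate 1 (0.20), SOX4 shRNA replicate 2 (0.19), scrambled array 1 (0.13) or scrambled array 2b (0.22). The other 6 measured members of this role did not pass, with differences of -0.02 for the retrotranslocation factor DERL1, 0.02 for DERL2, 0.09 for HERPUD1, a scaffold of the ligase complex, and 0.01, 0.09 and 0.21 for EDEM2, EDEM3 and EDEM1, which mark misfolded glycoproteins for disposal. EDEM1 had a log2 signal of 8.47, 8.48 and 8.77 on the SOX4 shRNA arrays, against 7.98, 8.73 and 8.39 on the scrambled arrays, which spread widely, and its adjusted p was 0.22. SEL1L, the partner of SYVN1, and DERL3 had no probe detected on enough arrays.

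Of the SEC61 translocon, SEC61A1, which encodes the channel itself, rose slightly. Its log2 signal was 11.61, 11.58 and 11.64 on the SOX4 shRNA arrays and 11.48, 11.46 and 11.43 on the scrambled arrays. The groups were narrow and did not overlap, and the difference was 0.15 ± 0.052 (SE; adjusted p = 0.025, limma). SEC61A1 did not pass without SOX4 shRNA replicate 1 (0.15), SOX4 shRNA replicate 3 (0.14), scrambled array 2a (0.15) or scrambled array 2b (0.15). The small subunit genes SEC61B (-0.01, adjusted p = 0.89) and SEC61G (-0.10, adjusted p = 0.11) did not pass.

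**Figure D2:**
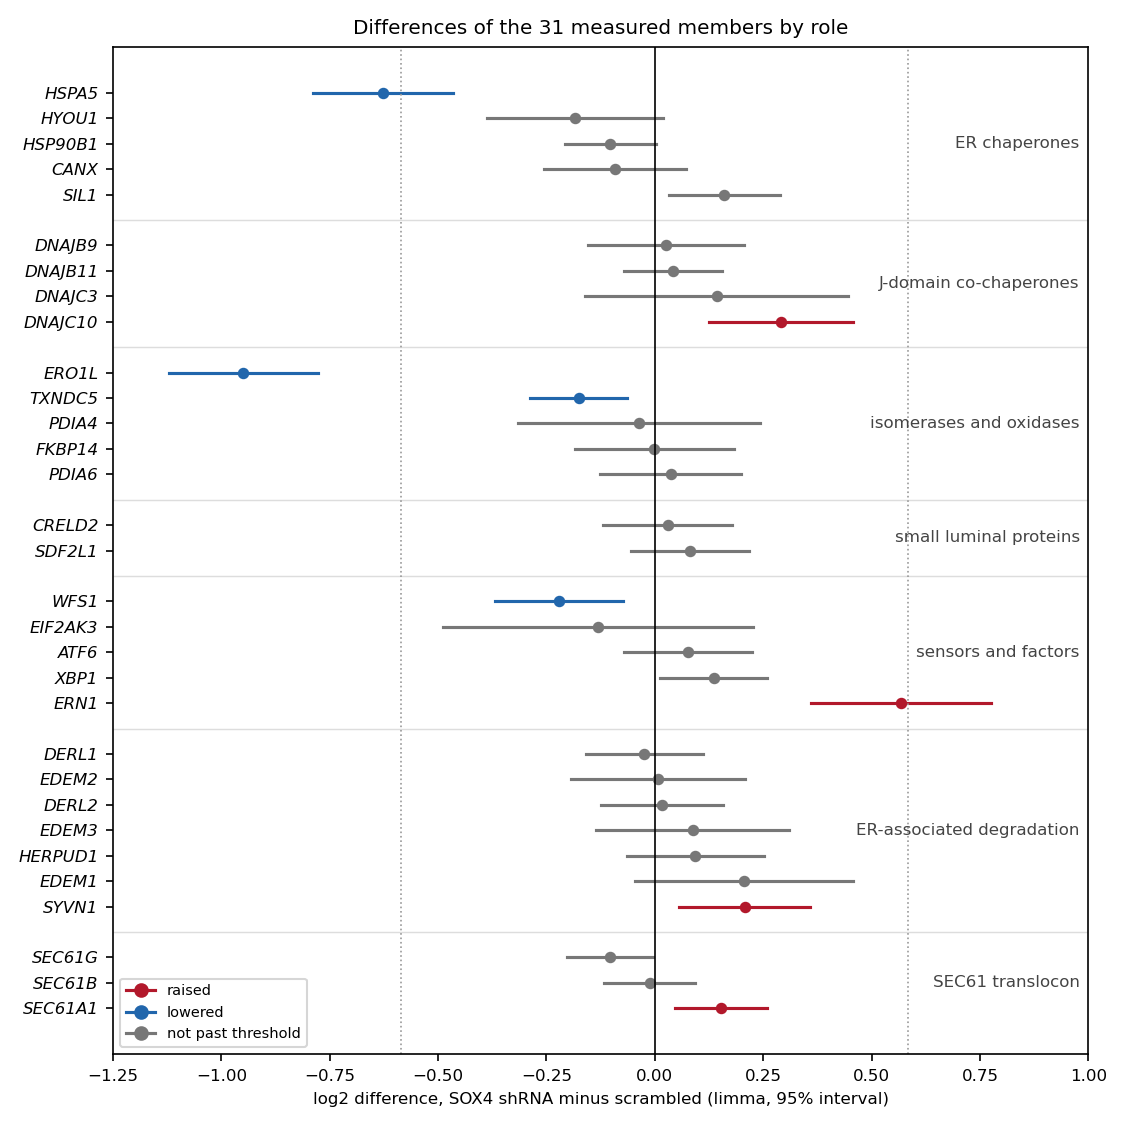
Log2 difference, SOX4 shRNA minus scrambled, of the 31 measured members with 95% intervals from limma, grouped by role; red rose, blue fell and grey did not pass an adjusted p of 0.05, and dotted lines mark a 1.5-fold change. Only ERO1L lies wholly beyond a dotted line, and all 23 grey intervals lie between the dotted lines.

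Some members that did not pass differed by as much as SEC61A1 (0.15) and TXNDC5 (-0.18), which passed. The differences of the 23 that did not pass ran from -0.19 (HYOU1) to 0.21 (EDEM1), and their 95% intervals from -0.49 to 0.46. All 23 intervals therefore lay inside a 1.5-fold change in either direction (0.58 on the log2 scale). Smaller changes are not excluded by these intervals. For EIF2AK3, whose signal was near background, the interval bounds the signal and not the change in transcript. DNAJC3 was also dim, with a mean intensity of 179 in SOX4 shRNA cells and 165 in scrambled cells. SIL1, XBP1 and SEC61G did not pass but had an unadjusted p under 0.05 in limma. The share of all rows at that threshold was not counted. The median fold of the 8 members that passed was 1.19, against 1.30 for all rows that passed.

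**Figure D3:**
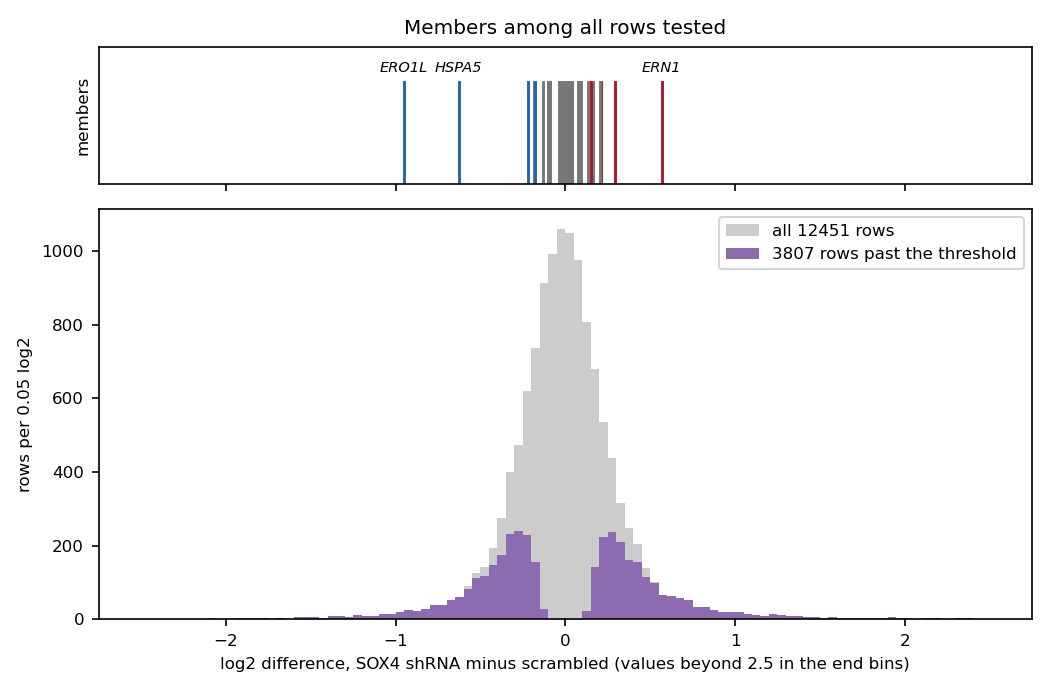
Top, the log2 difference of each measured member as a line, in red where it rose, blue where it fell and grey where it did not pass. Bottom, the distribution over all 12451 rows (grey) and the 3807 that passed (purple). Most members lie near 0, and ERO1L, HSPA5 and ERN1 stand away from the other 28.

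Members with more than 1 kept probe gave a check within the arrays. There were 9 such members, and in none of them did the kept probes differ in sign. Only in XBP1, DNAJC10 and TXNDC5 did a probe pass, in each case 1 probe. ERO1L, HSPA5, ERN1, WFS1, SYVN1 and SEC61A1 each had 1 kept probe, so their changes have no second probe to be set beside.

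**Figure D4:**
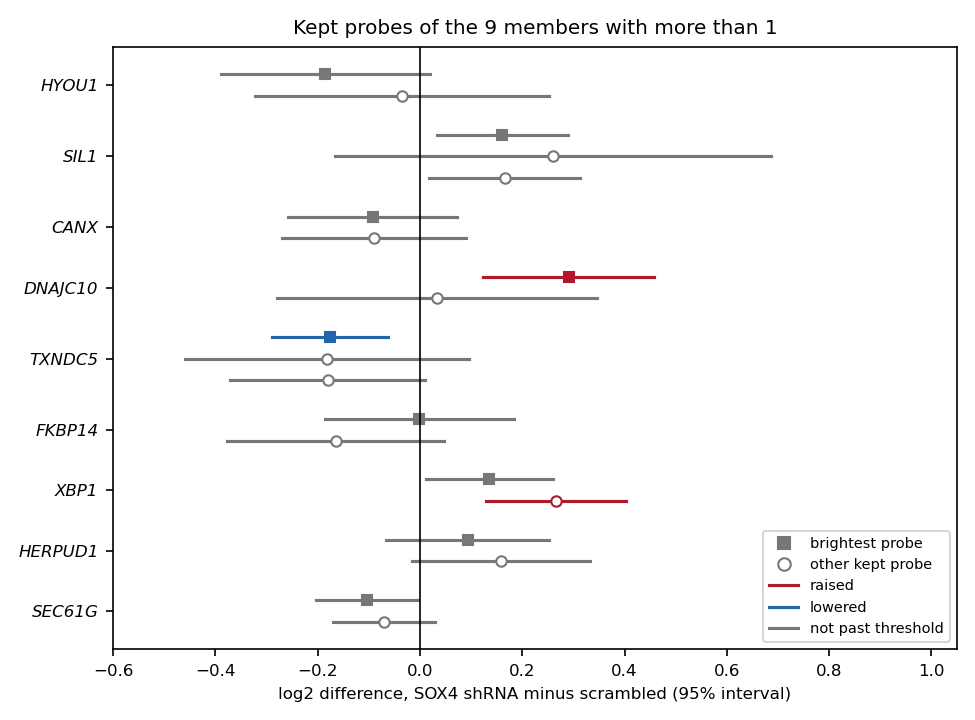
Log2 difference and 95% interval of every kept probe of the 9 members with more than 1, from a fit over all kept probes; filled squares are the probe that stands for the gene and open circles the others. The second XBP1 probe passed where the first did not, and the other DNAJC10 probe lies near 0.

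The promoter motifs can be set beside these values. Of the 6 measured members with an ERSE, only HSPA5 passed on the probe that stands for the gene. The others were HSP90B1 (-0.10), CANX (-0.09), PDIA6 (0.04), CRELD2 (0.03) and XBP1 (0.14, and 0.27 on its other probe, which passed). HSP90B1 holds 2 exact ERSE matches where HSPA5 holds 1, and copies that differ in any fixed letter were not counted. The HSP90B1 interval of -0.21 to 0.00 does not reach the interval of HSPA5. Whether ERSE copies bear on either difference was not tested. None of the 3 ERSE-II members passed in limma or at an unadjusted p under 0.05, with differences of -0.19, 0.08 and 0.09 for HYOU1, SDF2L1 and HERPUD1. Of the UPRE members, DNAJC10 rose and TXNDC5 fell. In all, 3 of the 11 measured members with any motif passed, with a median difference of 0.03, and 5 of the 18 with a window and none, among them ERO1L and ERN1. Both counts stand beside the 30.6% of all rows that passed.

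Genes of neighbouring steps of the secretory pathway were described from 8 lists of 144 genes, of which 132 were measured. Of these, 18 rose and 22 fell, 30.3% together, against 30.6% over all rows. Of the 34 that passed and are named here, 14 also passed whichever single array was left out, and the differences at which the other 20 failed to pass are given beside them. The PERK and ATF4 output list held the gene that moved most. CEBPG, a bZIP transcription factor that pairs with ATF4, had a log2 signal of 7.19, 7.32 and 7.29 on the SOX4 shRNA arrays and 8.67, 8.85 and 8.68 on the scrambled arrays. It fell 2.76-fold, with a difference of -1.46 ± 0.088 (SE; adjusted p = 1.4e-12, limma), a larger difference than that of any of the 31 members. DDIT3, which encodes CHOP, fell (-0.30, adjusted p = 0.02), and the other 7 of 9 measured genes of the list did not pass, ATF4 itself at -0.04 (adjusted p = 0.64). DDIT3 did not pass without SOX4 shRNA replicate 2 (-0.25), SOX4 shRNA replicate 3 (-0.25), scrambled array 1 (-0.27) or scrambled array 2b (-0.29).

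Disulfide and folding factors outside the members changed in both directions, with 3 of 20 measured genes higher and 5 lower (median -0.04). TMX2, a membrane thioredoxin carried on the chip as TXNDC14, fell (-0.84, adjusted p = 2.5e-10). Its relative TMX4 (-0.56) and the prolyl isomerase FKBP11 (-0.36) fell as well. PDIA5, another disulfide isomerase, rose by 0.60 (adjusted p = 2.2e-05), as did the cyclophilin PPIC (0.28) and the collagen chaperone SERPINH1 (0.24). FKBP11 did not pass without SOX4 shRNA replicate 3 (-0.24), scrambled array 1 (-0.30) or scrambled array 2a (-0.34). SERPINH1 did not pass without scrambled array 2a (0.18).

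Of 20 measured genes of protein entry into the ER, 3 rose and 4 fell (median -0.01). SEC63, a J-domain partner of the channel, rose by 0.33, SRP14 of the signal recognition particle by 0.30 and the signal peptidase subunit SEC11C by 0.21. The other kept probes of SEC63 and SRP14 gave 0.10 and 0.09, and SEC63 did not pass as the mean of its kept probes. SEC62, which works with SEC63 (-0.39), the signal peptidase subunit SPCS1 (-0.19) and TRAM1 (-0.17) fell. SEC62 was dim, with a mean intensity of 164 in SOX4 shRNA cells and 177 in scrambled cells. Its difference ran from -0.55 to -0.15 over the processing settings varied. SEC63 did not pass without SOX4 shRNA replicate 1 (0.28) or scrambled array 2b (0.18), and SEC11C did not without SOX4 shRNA replicate 1 (0.21), SOX4 shRNA replicate 3 (0.18), scrambled array 1 (0.22) or scrambled array 2b (0.13). SEC62 did not pass without SOX4 shRNA replicate 1 (-0.34), SOX4 shRNA replicate 2 (-0.43), SOX4 shRNA replicate 3 (-0.40), scrambled array 2a (-0.34) or scrambled array 2b (-0.35), and TRAM1 did not without SOX4 shRNA replicate 1 (-0.15), SOX4 shRNA replicate 2 (-0.14) or scrambled array 1 (-0.14).

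Of 20 measured genes of N-glycosylation and lectin chaperones, 2 rose and 4 fell (median -0.01). UGGT2, a folding sensor for glycoproteins carried as UGCGL2 (-0.48), the lectin MLEC (-0.30) and the oligosaccharyltransferase subunit TUSC3 (-0.26) fell, while ERLEC1 (as C2ORF30) rose by 0.24 and OSTC by 0.21. TUSC3 did not pass without SOX4 shRNA replicate 1 (-0.18), and ERLEC1 did not without SOX4 shRNA replicate 2 (0.22), scrambled array 1 (0.22) or scrambled array 2b (0.20). The other kept TUSC3 probe gave -0.06, and TUSC3 did not pass as the mean of its kept probes or in the authors' log2 values.

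Of 15 other degradation factors, FAM8A1 rose by 0.46, with groups that overlapped, and the ubiquitin-conjugating enzyme UBE2J2 fell (-0.37), with a median of -0.01 over the list. The other kept UBE2J2 probe gave -0.15, and UBE2J2 did not pass as the mean of its kept probes or in the authors' log2 values. FAM8A1 did not pass without SOX4 shRNA replicate 1 (0.41), SOX4 shRNA replicate 3 (0.38), scrambled array 1 (0.42) or scrambled array 2b (0.41), and its difference was 0.16 without background correction, where it passed (adjusted p = 0.036, limma). Of 13 measured genes of sensor signalling and partner factors, YY1 rose by 0.20, with groups that overlapped, and RTCD1 (-0.24), the ERSE-binding subunit NFYC (-0.22) and the ER membrane factor CREB3L2 (-0.19) fell, with a median of 0.03 over the list. YY1 did not pass without SOX4 shRNA replicate 2 (0.18), scrambled array 1 (0.15) or scrambled array 2a (0.16), and RTCD1 did not without SOX4 shRNA replicate 2 (-0.17), scrambled array 2a (-0.22) or scrambled array 2b (-0.21). NFYC did not pass without SOX4 shRNA replicate 1 (-0.21), SOX4 shRNA replicate 2 (-0.20), scrambled array 1 (-0.22) or scrambled array 2b (-0.22), and CREB3L2 did not without SOX4 shRNA replicate 2 (-0.18), SOX4 shRNA replicate 3 (-0.17) or scrambled array 2a (-0.17).

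Of 20 measured genes of ER export and retrieval, 4 rose and 2 fell (median 0.02). The 3 most raised were the retrieval receptor KDELR3 (0.26), whose kept probes differed in sign, and the COPII GTPases SAR1A (0.25) and SAR1B (0.20). ARFGAP3 (-0.29) and the cargo receptor SURF4 (-0.19) fell. In the authors' log2 values ARFGAP3, KDELR3 and SAR1B did not pass, and the authors' deposited table gives ARFGAP3 a fold of 0.88. KDELR3 did not pass without scrambled array 1 (0.22), SAR1A without SOX4 shRNA replicate 1 (0.20) and SURF4 without SOX4 shRNA replicate 1 (-0.14) or scrambled array 2a (-0.16). SAR1B did not pass without SOX4 shRNA replicate 2 (0.14), scrambled array 1 (0.19) or scrambled array 2b (0.18).

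The list of heat shock genes outside the ER had the highest median of the 8 lists, 0.12, with 4 of 15 measured genes higher and 1 lower. That median is the value of HSF1, a transcription factor of low signal, detected on 2 SOX4 shRNA arrays and 1 scrambled array. HSPE1 and HSPD1, the mitochondrial chaperonin pair, rose by 0.26 and 0.24, although the kept probes of HSPD1 differed in sign, and HSPB1, a small heat shock protein, rose by 0.23. DNAJB1, a cytosolic J-domain protein, fell (-0.22). HSPD1 did not pass as the mean of its kept probes (0.12; adjusted p = 0.17, limma) or in the authors' log2 values (0.13; adjusted p = 0.25). HSPE1 did not pass without SOX4 shRNA replicate 3 (0.17) or scrambled array 1 (0.18), and DNAJB1 did not without SOX4 shRNA replicate 2 (-0.20), scrambled array 1 (-0.21) or scrambled array 2a (-0.17).

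**Figure D5:**
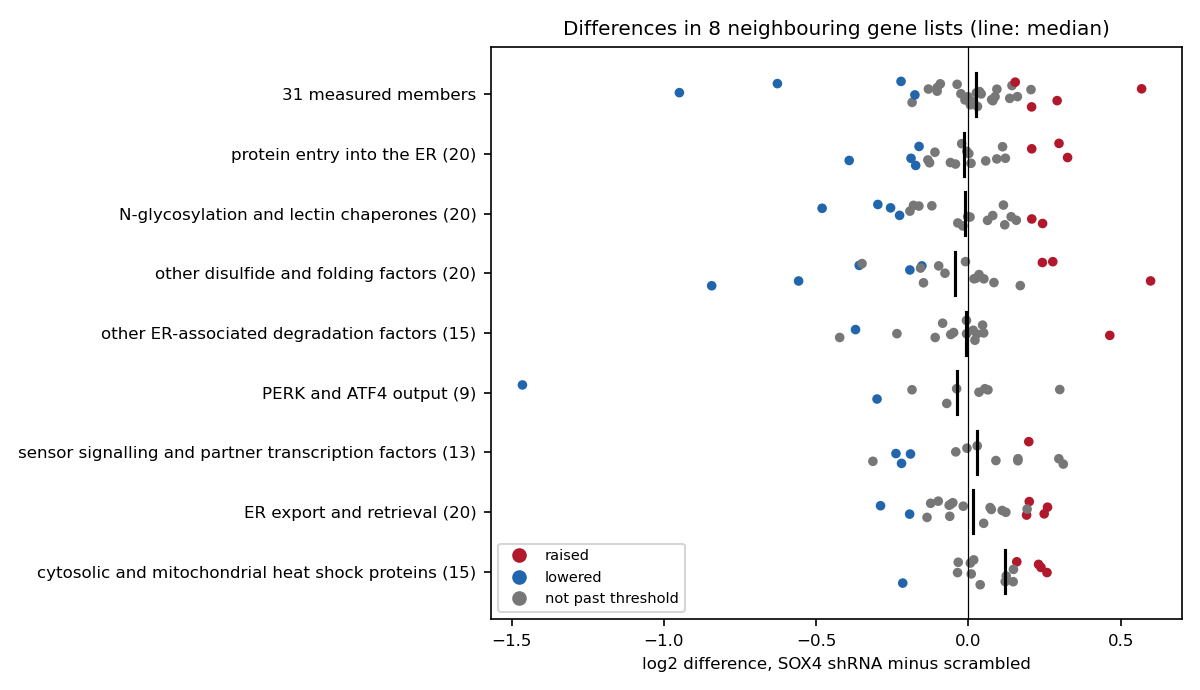
Log2 difference, SOX4 shRNA minus scrambled, of the 31 measured members (top row) and of the measured genes of 8 neighbouring lists, whose number stands in brackets. Each point is a gene, red where it rose, blue where it fell and grey where it did not pass; black lines are medians, from -0.04 to 0.12. CEBPG is the point at the far left.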

How the data were processed

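Total RNA of 6 MDA-MB-231 samples was labelled with biotin and hybridised to Illumina HumanHT-12 v4 BeadChips, per the labels' protocols. GenomeStudio 2011.1 is named in the submitters' processing notes. The authors deposited linear probe intensity values without normalization, each beside its detection p-value, per the file headers. They also deposited log2 values with 1 row per symbol and column medians of 2.80 to 2.82, for which the file headers of the comparison table name RMA and ArrayStar. No further scaling is stated in those headers. The authors' deposited table of log2 group means and a linear fold had log2 folds that correlated at 0.996, across 22259 genes, with the group differences of those log2 values. It was read as that comparison, although the heading of its second mean names another hairpin. Scrambled arrays 2a and 2b both carry the heading of replicate 2, and no column names replicate 3.

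Intensities were background-corrected from the detection p-values, quantile normalized and log2 transformed by the neqc function (limma 3.58.1, R 4.3.3) with an offset of 16. Quantile normalization holds the median difference near 0, so a shift of all genes would not show. A probe was kept if its detection p was below 0.01 on 3 or more of the 6 arrays (15717 of 47322, 33.2%), and the brightest kept probe stood for each symbol, which left 12451 rows. The 2 groups were tested with lmFit and trended eBayes, adjusted by Benjamini-Hochberg over all rows with a threshold of 0.05. The fit was tested on simulated data. Differences and SE are on the log2 scale.

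The members and the lists were chosen with earlier results of these data known, so their counts are descriptions. All 38 members are accounted for. Values on every array are given for HSPA5, XBP1, ERN1, ATF6 and EIF2AK3 and for up to 4 members per role past the threshold. From each other list up to 3 raised and 3 lowered genes past the threshold are named. Values on every array of EDEM1 and CEBPG, and the values of ATF4, were added after they were seen. Of the 144 list genes, 4 were matched by an older symbol. Motifs were searched with Python 3.11.15 in the RefSeq promoter table of GRCh38.p14, and figures were drawn with matplotlib 3.10.9. The settings varied were the background correction, the normalization (cyclic loess), the source of values (the authors' log2 table), the detection filter (none, or all 6 arrays), averaging probes, the variance trend, a replicate block, and dropping single arrays.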

Additional observations from a re-analysis of the deposited data

How the results depend on the processing

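HSPA5 and ERO1L passed under all 14 alternatives, with differences of -0.67 to -0.47 for HSPA5 and -1.02 to -0.69 for ERO1L. ERN1 passed in all but the authors' log2 values, where the log2 difference of ERN1 was 0.54 (adjusted p = 0.054) and, with the replicate number as a block, had an adjusted p of 0.085. The 5 smaller changes were less stable: WFS1 lost its call in 3 alternatives, DNAJC10 in 5, TXNDC5 and SEC61A1 in 6 each and SYVN1 in 8. SIL1 and XBP1 passed in 3 alternatives each and EDEM1 in 1. Of the 34 named genes of other lists that passed, 7 passed under all 14 alternatives (CEBPG, TMX2, TMX4, UGGT2, MLEC, PDIA5 and PPIC), and 27 lost their call in at least 1, at most in 8 (SEC11C and SAR1B). SEC63, SEC62 and FAM8A1 lost it in 7 each.

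Against the 4 member genes raised and 4 lowered, 2 rose in the authors' log2 values, 2 with a replicate block in them and 2 with no detection filter, and without an intensity trend 1 rose and 2 fell. Leaving out 1 array gave 2 to 4 raised and 2 to 4 lowered. The lowest counts were 2 raised and 2 lowered without scrambled replicate 2b and 2 raised without SOX4 shRNA replicate 1. The counts over all genes stayed within 1.5 times the reported ones. No call reversed. Whether same-numbered samples were prepared together is not given in the sources used here. No shared deviation was visible, as the deviations of same-numbered samples correlated at 0.016, -0.0011 and -0.023 in the authors' values. The scrambled columns of the intensity table do not all carry a number of their own, so the block was run only there. The slide was not run as a block because the sources used here name no slides. EIF2AK3 and the 5 members with no kept probe are limited by signal over background.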

Other observations

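The ERSE motif was also counted outside the members. Its letters were found in the promoter windows of 25 genes, of which 14 were measured. HSPA5 was the 1 that passed an adjusted p of 0.05 in limma on the probe that stands for the gene. The other XBP1 probe also passed. Of the 8 measured holders that are no members, none passed. Over all rows 30.6% passed, and none of the motif counts was tested against that share. The lowest adjusted p of the 8 was that of EIF2A, with a difference of 0.16 (adjusted p = 0.056). CALR, the lectin chaperone calreticulin, differed by 0.01 (adjusted p = 0.96), FICD, an enzyme that modifies BiP, by -0.23 (adjusted p = 0.13), and SERP1, a protein of the translocon, by 0.15 (adjusted p = 0.20). ALG12, a mannosyltransferase, differed by 0.28 (adjusted p = 0.28). The ERSE-II letters were found in 19 genes, of which 12 were measured. Of the 9 measured holders that are no members, 3 passed: PLS3, an actin bundler, fell (-0.61, adjusted p = 6.9e-08), as did the ATPase RUVBL2 (-0.28, adjusted p = 0.002), and the methyltransferase SETD3 rose (0.21, adjusted p = 0.0075). These genes were chosen by their promoter letters after the member values were seen, and the motif is not a test of binding.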
